A study of Mus musculus with 12 samples.

Results

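The genes described here are 10 components of the STING and cytosolic DNA sensing pathway, out of 55487 genes in the deposited tables. They were taken by symbol and matched to 1 Ensembl identifier each: Cgas, Ddx41, Tmem173 (the symbol used in the tables' annotation for the gene that encodes STING), Tbk1, Ikbke, Irf3, Trex1, Samhd1, Enpp1 and Trim56. The 12 libraries are bulk poly(A) RNA-seq of mouse cortex taken 2 hr after controlled cortical impact (CCI), a mechanical brain injury model, with 3 libraries in each of 4 groups. All animals had CCI, and no uninjured animals were among these samples. The ipsilateral cortex is the struck side and the contralateral cortex the opposite side. The wt groups carried the genotype CX3CR1cre-er/+ and the cKO groups CX3CR1cre-er/+ STING fl/fl, so both carry a Cre-ER allele at Cx3cr1, a gene expressed in microglia and in some blood myeloid cells. The series' design text instead writes the floxed line as CX3CR1cre/+. Treatment with an inducer, age, sex, strain background and littermate status are not given in the sources used here. A floxed allele therefore cannot be told apart from other differences between the lines, and other cortical cells keep the gene. The title of the series places the question in acute STING signaling by microglia and white blood cells.

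In this pathway the enzyme cGAS binds DNA in the cytosol and makes the cyclic dinucleotide cGAMP. STING, a protein of the endoplasmic reticulum, binds cGAMP, moves toward the Golgi and recruits the kinase TBK1, which phosphorylates the transcription factor IRF3 and thereby turns on type I interferon genes. In the brain, microglia are among the cells known for STING expression, and nucleases such as TREX1 limit the pathway by removing DNA.

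The pair of related kinases is shown first, because Ikbke was the 1 member that passed the test between the sides of the brain, while Tbk1 stayed within a narrow range. The lines give the 207 bases from 250 to 44 bases before the RefSeq start of each gene, read 5′ to 3′ along the gene from GRCm38.p6, with every CpG in capitals. Tbk1 lies at chr10:121586838-121587044 and Ikbke at chr1:131279607-131279813, both on the minus strand.
Tbk1: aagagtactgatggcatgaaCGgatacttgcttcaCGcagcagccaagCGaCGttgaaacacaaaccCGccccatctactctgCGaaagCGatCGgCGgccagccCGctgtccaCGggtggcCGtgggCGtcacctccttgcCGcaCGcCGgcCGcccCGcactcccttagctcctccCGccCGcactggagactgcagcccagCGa
Ikbke: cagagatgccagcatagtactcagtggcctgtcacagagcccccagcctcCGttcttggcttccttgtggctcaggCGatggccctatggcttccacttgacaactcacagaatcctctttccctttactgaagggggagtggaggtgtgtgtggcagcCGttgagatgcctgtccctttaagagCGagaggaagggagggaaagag
The Tbk1 stretch holds 21 CpGs and the Ikbke stretch 4. Over the full window of 300 bases, from 250 before to 50 after the start, Tbk1 has 37 CpGs, more than 94.4% of 32851 RefSeq promoters, and Ikbke has 4, more than 31.4% of them (median 7).

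A window of that kind was found for 9 of the 10 members (all but Tmem173, which was not searched), with 2 starts for Trex1. It was searched on both strands for the letters TGANTCA, a core bound by AP-1 factors, which stood in 7.81% of all promoters. Among the members it stood in Ikbke only, across the start itself (from 6 bases before it to base 1), in the 30 bases at chr1:131279552-131279581 with the match in capitals.
Ikbke site: gagagagagaagTGAATCAggaagtatgat
The core of an interferon response element, 2 copies of GAAA with 2 bases of any kind between them, stood in 3.44% of promoters and in none of these members' windows. A kappaB consensus stood in 8.46% of promoters, and among the members in Trex1 and Enpp1. These matches are letters in a window, and no binding was measured.

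Library totals were 20779210 to 33567194 estimated reads, except for 7958931 in cKO ipsilateral library 3. Levels below are CPM, counts scaled to library size with TMM factors, and 3 counts, taken as the floor of detection, correspond to 0.0881 to 0.373 CPM in the single libraries. The tissue carried the markers of cortex in all 12 libraries: 7 neuron genes summed to 6955 to 8507 CPM and 15 microglia genes to 428 to 572 CPM. The 10 neutrophil genes listed summed to 5.41 to 6.57 CPM on the contralateral side and to 13.6 to 53.7 CPM on the ipsilateral side. In a principal component analysis of the genes tested, cKO ipsilateral library 3 lay apart on the second component (52.3, beside -10.4 and -15.4 for cKO ipsilateral 1 and 2). On the first and second components cKO contralateral 2 (-29.38, -1.413) lay near cKO contralateral 1 (-29.75, 1.111). The library cKO ipsilateral 2 (27.85, -15.41) lay nearer to wt ipsilateral 2 (27.97, -14.89) than to cKO ipsilateral 1 (23.82, -10.35). Within each side the genotypes overlapped on both components, so these positions do not bear on the genotype label. Both libraries labelled cKO number 2 stood apart from the other cKO libraries in Tmem173 and in genes picked for a like pattern, as described below. Whether the genotype label of the libraries numbered 2 is right was not tested. Every cKO mean and genotype difference below includes them unless it says otherwise. The genotype differences and the leading injury result are also given without them. No pair of libraries was identical. The labels do not tie libraries to animals, and the tests below rest on library-to-library variation, which may in part be technical.

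On the per-length scale (TPM, corrected for transcript length, as deposited), transcripts of the sensor Cgas and the adaptor Tmem173 were much less abundant than those of the kinase Tbk1 and the transcription factor Irf3. Ddx41, which also encodes a reported DNA sensor, had the highest mean. Mean levels over 12 libraries were 31.4 TPM for Ddx41, 21.8 for Tbk1, 20.0 for Irf3, 12.7 for Trex1, 6.71 for Samhd1, 2.89 for Tmem173, 1.59 for Trim56, 1.23 for Enpp1, 0.508 for Ikbke and 0.338 for Cgas. Neighbours in this order had overlapping ranges over the libraries, except that the lowest value of Trex1 (9.70 TPM) lay above the highest of Samhd1 (9.07 TPM). The TPM of Tbk1 exceeded that of Ikbke by 17.7 to 102 times in single libraries (median 46.4), and Tmem173 exceeded Cgas by 2.18 to 17.4 times (median 10.9). The Tmem173 mean includes the cKO libraries, in which it is the targeted gene. In wt it averaged 3.10 TPM contralaterally and 4.19 TPM ipsilaterally. All 10 members passed the filter on low counts, with 4 to 1262 counts per library. In bulk tissue, fewer cells of a type and less RNA per cell cannot be told apart.

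**Figure D1:**
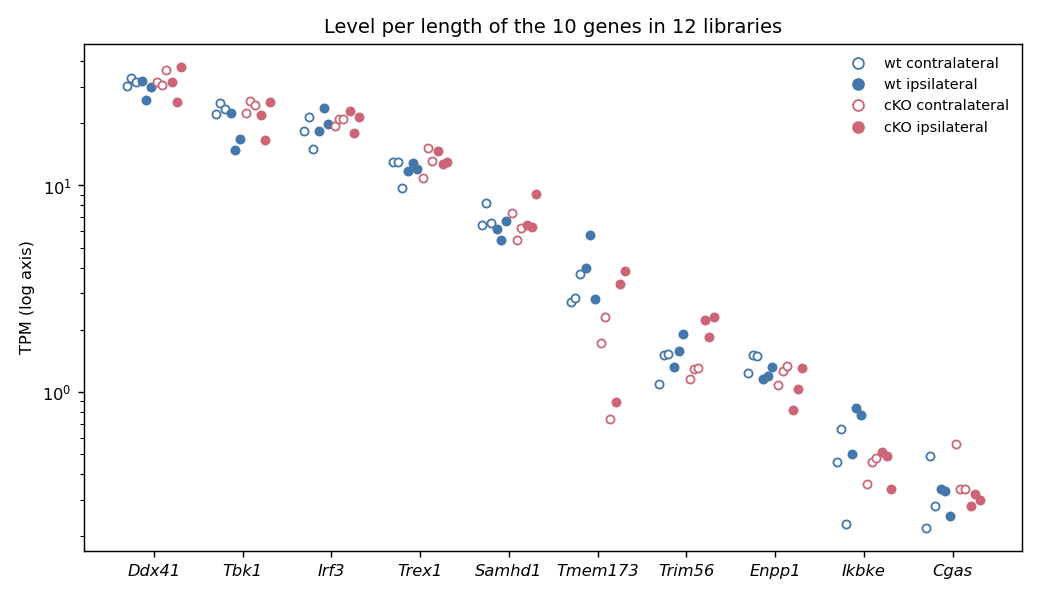
Level of each of the 10 genes in the 12 libraries, in TPM on a log axis, ordered by the mean (points are single libraries, coloured by genotype and filled for the ipsilateral side). Ddx41, Tbk1, Irf3 and Trex1 sit above the other 6 genes, and Ikbke and Cgas lie lowest, near 0.508 and 0.338 TPM on average.

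The first comparison asks which of the members differed between the struck and the opposite cortex. Ikbke, which encodes IKK-epsilon, a kinase related to TBK1 that can also phosphorylate IRF3, was higher on the ipsilateral side: the mean of the differences in wt and cKO was 0.95 ± 0.24 on the log2 scale (SE; 95% interval 0.45 to 1.46; 1.94-fold; edgeR quasi-likelihood test, adjusted p = 0.0215). It was the 1 of 10 members that passed, and 8.02% of the 16836 genes tested passed in either direction and 5.99% as higher (1350 genes, 1009 higher and 341 lower; 873 and 584 with scaling by library totals). The median log2 difference was 0.19 over the members and -0.01 over all genes tested, and 4 members had an unadjusted p under 0.05, beside 22.9% of all genes.

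In the 3 wt contralateral libraries Ikbke stood at 0.829, 0.587 and 0.412 CPM, and in the wt ipsilateral libraries at 1.147, 1.33 and 1.358 CPM. In cKO it stood at 0.558, 0.469 and 0.524 CPM contralaterally and at 1.153, 0.961 and 0.498 CPM ipsilaterally. The wt sides did not overlap, whereas in cKO the third ipsilateral library, the shallow one with 4 counts of the gene, lay within the contralateral range. By genotype the difference was 1.06 ± 0.32 in wt (log2, SE; edgeR adjusted p = 0.106) and 0.85 ± 0.35 in cKO (edgeR adjusted p = 0.279), so neither passed alone. The difference between those responses was -0.21 (95% interval -1.22 to 0.81; edgeR adjusted p = 0.9999).

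These are small counts, 4 to 33 per library, and the call depended on single libraries. It was lost (edgeR adjusted p from 0.0525 to 0.0771, log2 difference from 0.84 to 0.95) on leaving out any 1 of cKO contralateral 2, cKO ipsilateral 1, cKO ipsilateral 2, wt contralateral 2, wt ipsilateral 2 or wt ipsilateral 3. Without both cKO libraries numbered 2 the difference was 0.92 (edgeR adjusted p = 0.107), and without both numbered 3 it was 1.04 (edgeR adjusted p = 0.0213). On the TPM scale the cKO sides were close, with means of 0.433 contralaterally and 0.447 ipsilaterally, against 0.450 and 0.703 in wt. The transcript length implied by counts over TPM, relative to its median, was 0.674 to 0.965 in cKO contralaterally and 1.035 to 1.37 ipsilaterally. In wt it was 0.570 to 1.15 and 0.813 to 1.40. Its spread for Ikbke was 2.45 times, larger than in 84.9% of 1367 genes with similar counts. The part of this length in the TPM values was not tested. Neutrophil markers also rose with injury: 9 of 9 tested passed as higher in the mean of genotypes and in cKO, and 8 in wt. That count was partly set by the low-count filter. Cxcr2, Retnlg and Trem1 had at most 2 counts in any contralateral library and Mmp8 had 0, so they passed the filter through the ipsilateral side. Among the 10 listed, Mmp8 was at 0 in all 6 contralateral libraries and in none of the ipsilateral ones, and Ly6g was at 0 in 6 and 4 of them. Other marker sums moved with the side too. Endothelial sums were 330 to 378 CPM contralaterally and 366 to 449 CPM ipsilaterally, separate within each genotype. Monocyte genes summed to 8.08 to 11.98 against 13.2 to 17.1 CPM, and lymphocyte genes to 0.206 to 0.587 against 0.901 to 2.80 CPM. Neuron sums were 7974 to 8362 CPM contralaterally and 6955 to 7120 CPM ipsilaterally in cKO, and 8138 to 8507 against 7318 to 8275 CPM, with overlap, in wt. The part of these cells in the Ikbke difference and in the other injury differences was not tested.

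**Figure D2:**
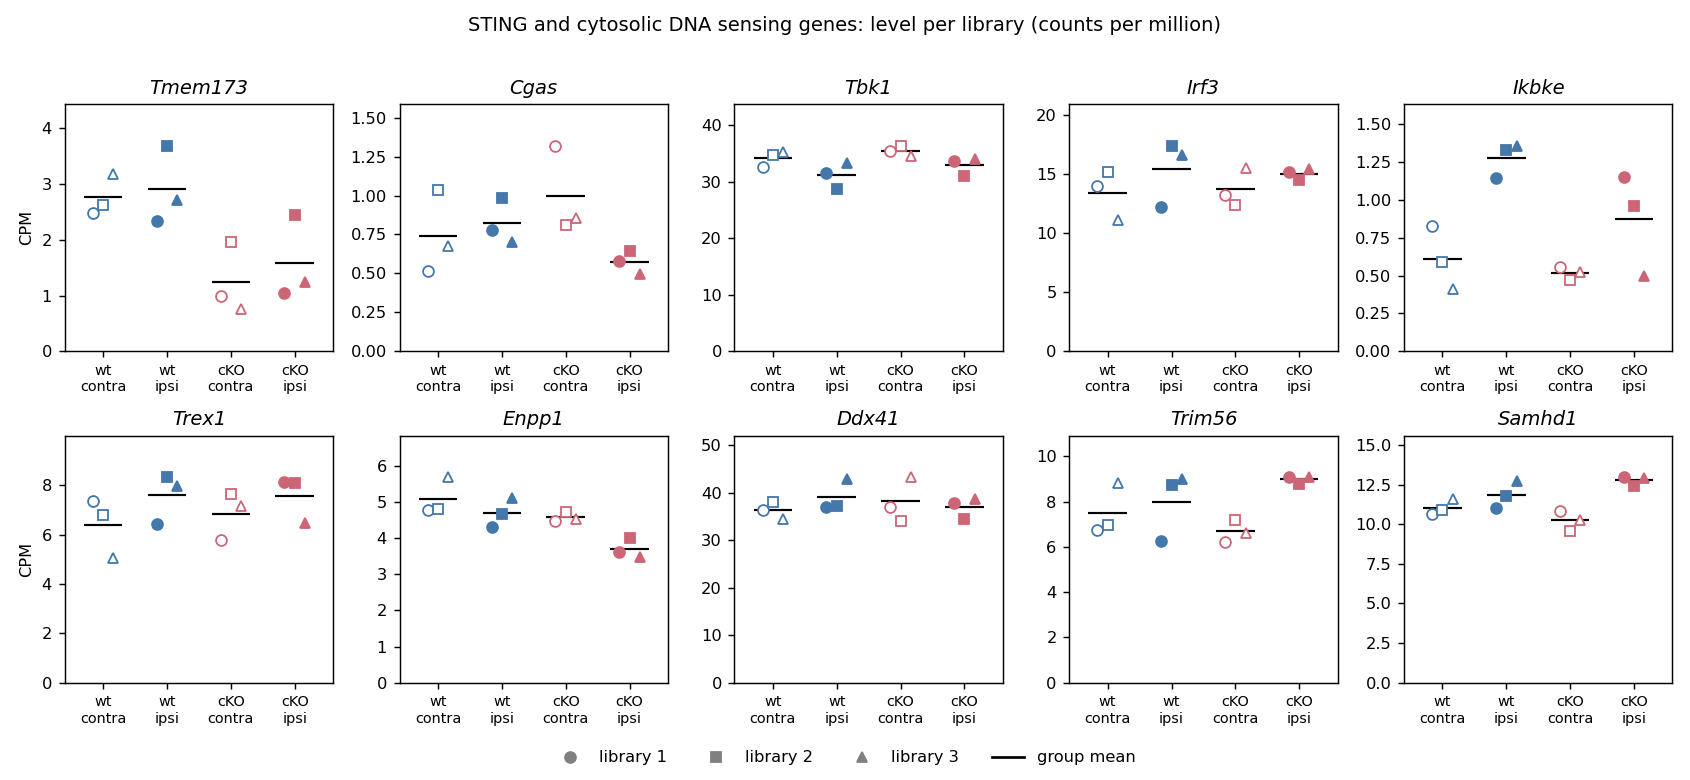
CPM of each member in every library (points; circle, square and triangle for libraries 1, 2 and 3; filled for the ipsilateral side), with the group mean as a bar and axes from 0. Ikbke is high in 5 of the 6 ipsilateral libraries. Tmem173 is lowest in cKO libraries 1 and 3 of both sides. Its level in cKO number 2 lies below wt contralaterally and within the wt range ipsilaterally.

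The related kinase Tbk1, the main STING-bound kinase, was nearly level. Its CPM was 32.6, 34.7 and 35.3 in wt contralateral cortex and 31.6, 28.8 and 33.4 in wt ipsilateral cortex. The cKO libraries stood at 35.4, 36.4 and 34.7 CPM contralaterally and at 33.7, 31.0 and 34.1 CPM ipsilaterally. The ipsilateral values tended to the lower end, without overlap in cKO and with overlap in wt. The mean log2 difference was -0.12 ± 0.06 (SE; 95% interval -0.24 to -0.00; edgeR adjusted p = 0.215). With 274 to 1206 counts per library, this interval excludes a change of the size seen for Ikbke. Irf3, the transcription factor that carries the signal to interferon genes, ranged from 11.1 to 17.4 CPM with overlapping groups (0.16 ± 0.10, log2, SE; edgeR adjusted p = 0.360). It shares 88 exonic bases with Bcl2l12 on the opposite strand, which stood at a mean of 1.004 CPM.

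Of the sensors, Cgas was the member with the fewest transcripts. Its CPM in cKO was 1.32, 0.810 and 0.857 on the contralateral side and 0.577, 0.641 and 0.498 on the ipsilateral side. In wt it was 0.518, 1.04 and 0.674 contralaterally and 0.779, 0.987 and 0.700 ipsilaterally. The cKO sides did not overlap and the wt sides did. The log2 differences were -0.78 ± 0.35 in cKO (SE; edgeR adjusted p = 0.325) and 0.14 ± 0.33 in wt (edgeR adjusted p = 0.897), neither of which passed. The difference between them, -0.92 ± 0.48, did not pass either (95% interval -1.95 to 0.11; edgeR adjusted p = 0.9999). Ddx41, a DEAD-box helicase reported as a DNA sensor upstream of STING, ranged from 34.1 to 43.3 CPM with no separation of groups. Its mean injury difference was 0.03 (log2; 95% interval -0.12 to 0.17; edgeR adjusted p = 0.852).

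Samhd1 and Trim56 were the members with the next smallest p-values after Ikbke. SAMHD1 is a dNTP hydrolase that restrains nucleic acid sensing. Its CPM in cKO was 10.8, 9.59 and 10.3 contralaterally and 12.97, 12.4 and 12.9 ipsilaterally. In wt it was 10.7, 10.9 and 11.6 contralaterally and 11.0, 11.8 and 12.8 ipsilaterally. The cKO sides separated and the wt sides overlapped. The log2 difference was 0.32 ± 0.10 in cKO (SE; edgeR adjusted p = 0.132), 0.10 ± 0.10 in wt (edgeR adjusted p = 0.684) and 0.21 in their mean (edgeR adjusted p = 0.0784). None of these passed, and the mean turned to -0.01 with limma on log2(TPM + 1), a scale on which the median of all genes moved to -0.11.

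TRIM56 is a ubiquitin ligase reported to act on cGAS and STING. Trim56 stood at 6.22, 7.20 and 6.62 CPM in cKO contralateral cortex and at 9.08, 8.77 and 9.08 CPM in cKO ipsilateral cortex. The wt values were 6.73, 6.98 and 8.83 CPM contralaterally and 6.27, 8.71 and 9.01 CPM ipsilaterally. The cKO sides separated again, and the wt sides covered nearly the same range. Its log2 difference was 0.43 ± 0.15 in cKO (SE; edgeR adjusted p = 0.201) and 0.26 ± 0.11 in the mean of genotypes (edgeR adjusted p = 0.154). Without wt ipsilateral library 1 the mean became 0.34 and passed (edgeR adjusted p = 0.0434). The genotype difference in this response was 0.34 ± 0.21 (edgeR adjusted p = 0.9999), so a stronger response in cKO was not shown.

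Enpp1, which encodes the extracellular hydrolase of cGAMP, had its lowest values in cKO ipsilateral cortex. There it stood at 3.604, 4.004 and 3.48 CPM, against 4.46, 4.73 and 4.52 CPM on the opposite side. The wt values were 4.76, 4.80 and 5.69 CPM contralaterally and 4.30, 4.68 and 5.10 CPM ipsilaterally. Every cKO library lay below every wt library of the same side, and the cKO sides did not overlap. The log2 differences were -0.29 ± 0.15 between the cKO sides (SE; edgeR adjusted p = 0.384) and -0.33 ± 0.14 between genotypes ipsilaterally (edgeR adjusted p = 0.823), and neither passed. Trex1, the DNA exonuclease, ranged from 5.05 to 8.33 CPM with overlapping groups (mean injury difference 0.21 ± 0.12, log2, SE; edgeR adjusted p = 0.304). All 1147 of its exonic bases are shared with Atrip on the same strand, so its counts depend on how reads were divided. Atrip itself held between 23.6 and 25.7 CPM in the 12 libraries.

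Counted by separation alone, 1 of 10 members had sides that did not overlap in wt (Ikbke), where 19.2% of all genes did. In cKO 5 of 10 did, with Trim56 and Samhd1 higher and Cgas, Tbk1 and Enpp1 lower ipsilaterally, beside 21.9% of all genes (10.8% higher and 11.1% lower). None of the 10 passed the edgeR test, or DESeq2, within either genotype, where 2.92% of genes passed in wt and 2.74% in cKO. At an unadjusted p under 0.05 there was 1 member in wt and 4 in cKO, against 14.4% and 14.3% of all genes.

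**Figure D3:**
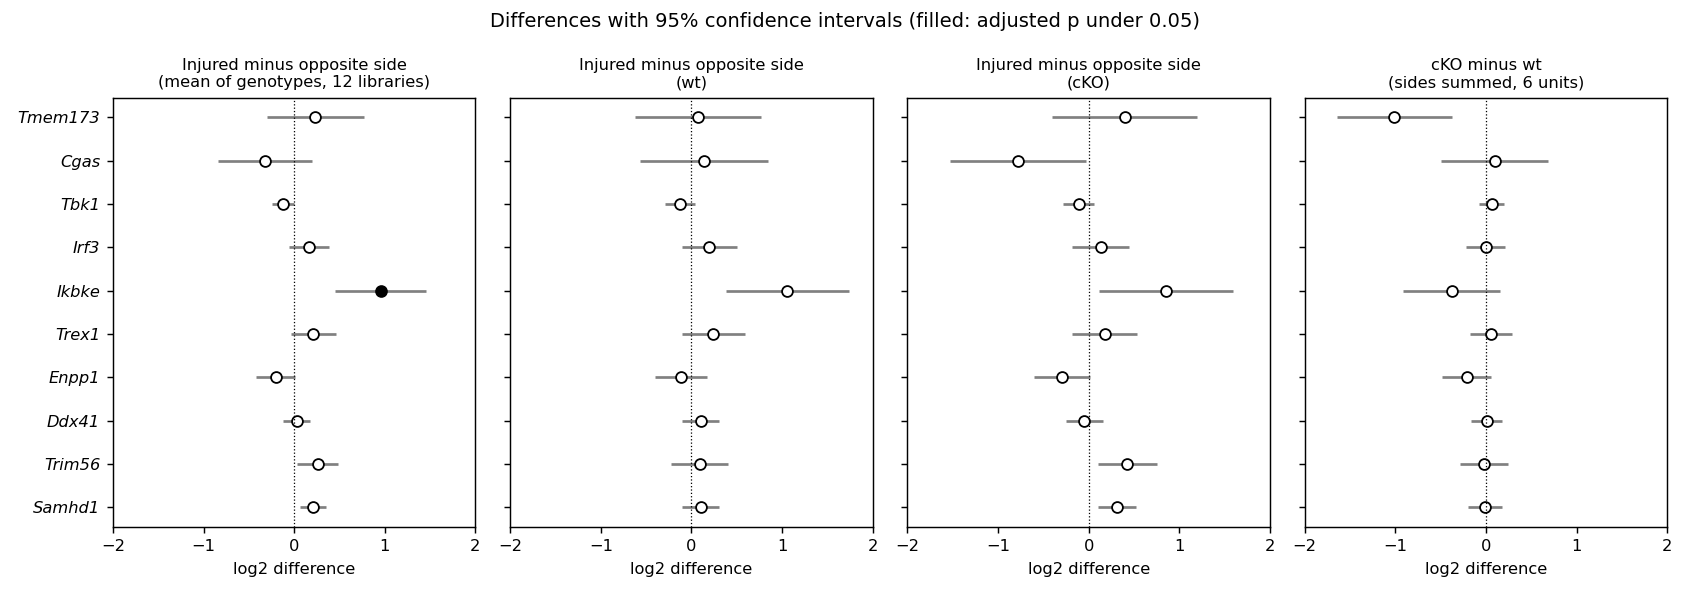
Log2 differences (points) with 95% intervals (lines) for the 10 members in 4 contrasts, filled where the adjusted p is under 0.05. Ikbke in the mean injury contrast (0.95) is the filled point, and Tmem173 between genotypes lies at -1.01 with an interval below 0 but does not pass after adjustment over all genes.

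The second comparison asks how the members differed between genotypes, beginning with Tmem173, the targeted gene. Its CPM in wt was 2.49, 2.63 and 3.18 contralaterally and 2.34, 3.69 and 2.72 ipsilaterally. The cKO values were 0.998, 1.96 and 0.762 CPM contralaterally and 1.05, 2.44 and 1.24 CPM ipsilaterally. On the contralateral side every cKO library lay below every wt library, and on the ipsilateral side cKO library 2 lay within the wt range. Group means were 2.76 ± 0.37 and 2.91 ± 0.70 CPM in wt, and 1.24 ± 0.63 and 1.58 ± 0.76 CPM in cKO (SD, n = 3, contralateral then ipsilateral). These are gene-level counts, 10 to 86 per library, and do not separate the floxed exons from the others.

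Summing the same-numbered sides, Tmem173 was lower in cKO by a log2 difference of -1.01 ± 0.29 (SE; 95% interval -1.65 to -0.38; 0.495-fold). That has an unadjusted p of 0.00484 but did not pass over the 17785 genes tested (edgeR adjusted p = 0.999), where 0% of genes passed and 4.45% had an unadjusted p under 0.05. The differences by side were -1.16 ± 0.35 contralaterally (edgeR adjusted p = 1) and -0.84 ± 0.35 ipsilaterally (edgeR adjusted p = 0.816). An exact two-sided permutation test on log2 CPM gave p = 0.1 contralaterally and over the mean of the sides, the smallest that 3 against 3 allows, and p = 0.2 ipsilaterally. Divided by the summed microglia markers, the log2 difference was -1.16 contralaterally and -0.79 ipsilaterally, with every cKO library below every wt library on both sides (exact permutation p = 0.1 each, 0.12 after adjustment over 12 such tests). Divided by Cx3cr1 alone, the gene that carries the Cre allele, it was -1.08 contralaterally without overlap (exact permutation p = 0.1) and -0.66 ipsilaterally, where the genotypes overlapped (exact permutation p = 0.2). Divided by the summed endothelial markers, it was -1.26 contralaterally and -0.96 ipsilaterally, without overlap on either side (exact permutation p = 0.1 each). The separation was thus not particular to scaling by microglia markers. Microglia marker sums themselves were 445 to 490 CPM in cKO and 475 to 484 CPM in wt contralaterally, and 428 to 525 CPM in cKO and 462 to 572 CPM in wt ipsilaterally. The median log2 difference of the 15 microglia genes between genotypes was -0.05 contralaterally and -0.14 ipsilaterally, with 3 and 2 of the 15 above 0.

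Leaving out the unit of cKO libraries numbered 2 gave -1.54 ± 0.21, which passed (edgeR adjusted p = 0.0344, 24 genes passed in that fit). That unit held the highest Tmem173 in cKO (2.21 CPM, beside 1.02 and 0.896), and leaving it out was chosen after seeing the data. A larger difference follows from that choice, so this pass is no support. In the fit of single libraries without cKO number 2, with the same limit, the differences were -1.63 contralaterally (edgeR adjusted p = 0.139) and -1.39 ipsilaterally (edgeR adjusted p = 0.248). With no filter on low counts Tmem173 also passed, at -1.02 ± 0.20 (edgeR adjusted p = 2.2e-04, 161 genes passed). Its size was nearly that of the filtered fit (-1.01 ± 0.29). The pass thus came with a smaller standard error and not with a larger difference, and it is no separate support. Leaving out each other unit gave -0.80 to -1.12 with no pass. The difference thus rests mainly on cKO units 1 and 3, whose 4 libraries hold 0.762 to 1.24 CPM. The libraries labelled cKO number 2 hold 1.96 CPM contralaterally and 2.44 CPM ipsilaterally. The first lies below the wt range of 2.335 to 3.691 CPM and the second within it. Between the sides of the brain the Tmem173 difference did not pass: it was 0.08 ± 0.33 in wt and 0.40 ± 0.38 in cKO (log2, SE; edgeR adjusted p = 0.944 and 0.685).

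For Tmem173 the count and TPM scales ranked the shallow library differently. In cKO ipsilateral library 3 Tmem173 had 10 counts and 1.24 CPM, low for the series, but 3.85 TPM, above 2.72 to 3.73 TPM in wt contralateral cortex. Estimated counts divided by TPM give the effective transcript length that the isoform estimate used. Relative to its own median over the libraries that length was 0.441 there and up to 1.37 elsewhere, a spread of 3.11 times. Among 1503 genes with similar counts the median spread was 1.23 times, and 96.3% had a smaller one. TPM values of Tmem173 in single libraries are therefore read with the counts beside them.

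The genes whose pattern over the 12 libraries was nearest to that of Tmem173 also set cKO number 2 apart. Likeness was measured as the root mean square difference of centred log2 CPM over 14495 genes, where a gene with no variation scores 0.675 and the median gene 0.695. The 5 nearest were Tmem181b-ps (0.288), a pseudogene on chromosome 17, Wdfy1 (0.303) on chromosome 1, Dynlt1b (0.343), a dynein light chain gene on chromosome 17, Col5a2 (0.382), a fibrillar collagen gene on chromosome 1, and Gabra2 (0.387), a GABA-A receptor subunit gene on chromosome 5. Since they were picked for this likeness, their values are a description without a test.

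In the 4 cKO libraries numbered 1 and 3, Wdfy1 stood at 11.0 to 12.3 CPM, whereas the libraries numbered 2 stood at 25.3 and 25.9 CPM, inside the wt range of 21.5 to 26.9 CPM. Gabra2 was at 33.2 to 46.5 CPM in cKO numbers 1 and 3, at 70.1 and 72.2 CPM in number 2 and at 62.9 to 87.5 CPM in wt. Tmem181b-ps showed 20.6 to 25.8, then 48.3 and 50.4, then 43.7 to 51.4 CPM in the same order. For Dynlt1b the values were 5.37 to 6.59, then 10.6 and 11.0, then 9.24 to 13.5 CPM. In these 4 genes cKO number 2 lay with wt on both sides of the brain. Col5a2 was less distinct, at 1.55 to 2.61 CPM in cKO numbers 1 and 3, 2.73 and 3.24 in number 2 and 3.04 to 5.02 in wt. Tmem181b-ps and Dynlt1b have near-identical copies, so their counts depend on how reads were shared. They are also close neighbours, at chr17:6438524-6467022 and chr17:6430112-6436296, so they may not be separate observations. No member ranks near Tmem173 by this measure: of the 7 others with at least 1 CPM, Enpp1 was nearest at 0.591, with 492 genes nearer.

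**Figure D4:**
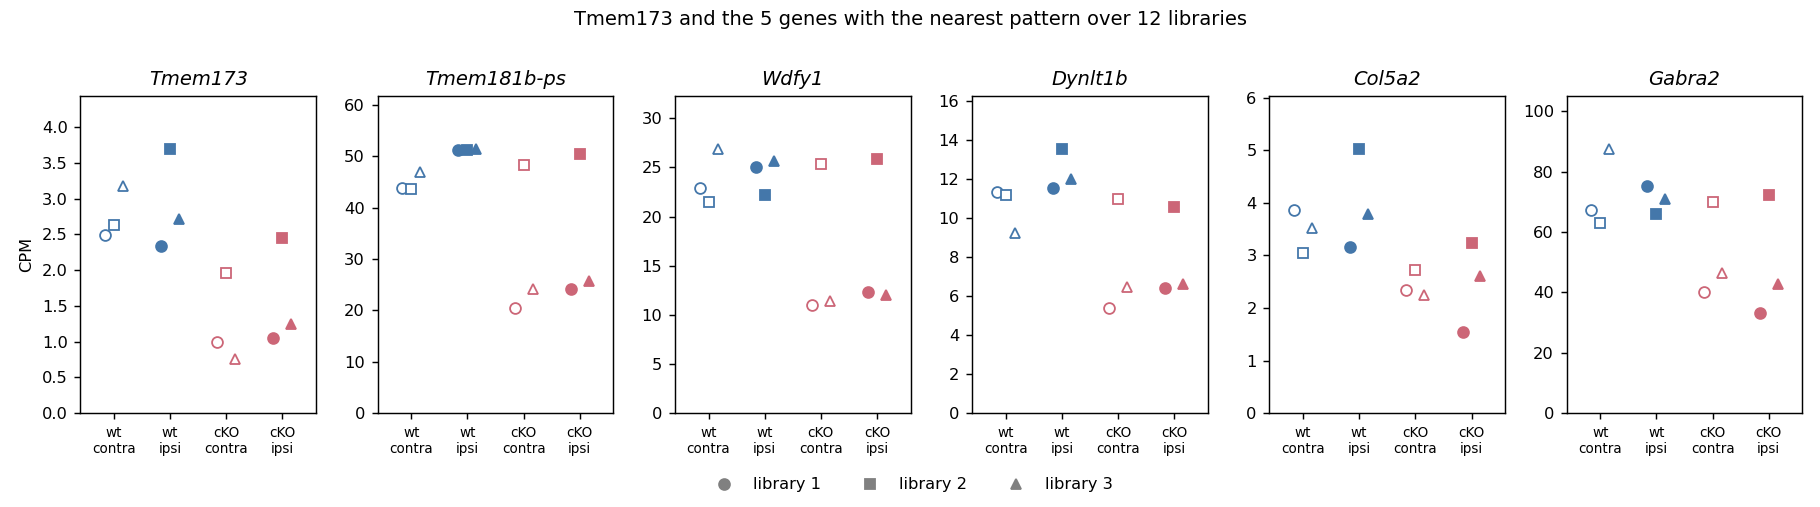
CPM in every library for Tmem173 and the 5 genes nearest to it in pattern (circle, square and triangle for libraries 1, 2 and 3; filled for the ipsilateral side; axes from 0). The squares of cKO, library 2, lie at the wt level in Tmem181b-ps, Wdfy1, Dynlt1b and Gabra2, while the 4 other cKO points lie lower.

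None of the 9 other members passed the edgeR test between genotypes on either side, where 0% of all genes passed; DESeq2 called 0 members as well. Without both cKO libraries numbered 2, 0 of 10 members passed on either side, beside 7 genes contralaterally and 8 ipsilaterally. At an unadjusted p under 0.05 stood Tmem173 contralaterally, and Tmem173 and Enpp1 ipsilaterally, beside 2.7% and 5.86% of all genes. Groups did not overlap for 2 of 10 members contralaterally (Tmem173 and Enpp1, both lower in cKO), beside 7% of genes in either direction and 3.6% lower, and for 2 ipsilaterally (Cgas and Enpp1, both lower), beside 11.6% and 5.99% lower. For the abundant members the intervals were narrow. With sides summed, the log2 difference in cKO was 0.06 for Tbk1 (95% interval -0.08 to 0.20), 0.01 for Ddx41 (-0.16 to 0.18), -0.01 for Samhd1 (-0.20 to 0.18), -0.00 for Irf3 (-0.22 to 0.21) and 0.06 for Trex1 (-0.18 to 0.29). For the scarce ones they were wide: 0.10 for Cgas (-0.49 to 0.69) and -0.38 for Ikbke (-0.92 to 0.16). Without the cKO unit numbered 2 the log2 differences were 0.08 for Tbk1, 0.08 for Ddx41, 0.01 for Samhd1, 0.04 for Irf3, -0.01 for Trex1, 0.19 for Cgas, -0.40 for Ikbke, -0.24 for Enpp1 and -0.06 for Trim56, with edgeR adjusted p from 0.843 to 0.998. On the ipsilateral side Enpp1 then stood at -0.40 ± 0.18 (log2, SE; edgeR adjusted p = 0.715) and Cgas at -0.57 ± 0.44 (edgeR adjusted p = 0.853). The genotype difference in the response to injury passed in edgeR for 0 of 10 members (none at an unadjusted p under 0.05; 0% of genes passed and 2.26% had such a p). It passed for 0 of 10 without both cKO libraries numbered 2 as well, where Cgas had the smallest p at -1.14 ± 0.58 (unadjusted p = 0.07, edgeR adjusted p = 0.9998).

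The wider pathway was covered by 98 other genes in 6 lists, of which 86 were tested. The lists were chosen with earlier results of these data known. Shares above that of all genes are therefore a description and not evidence that the pathway responded. With injury 11 rose and 1 fell in the mean of genotypes (14% of those tested, beside 8.02% of all genes). In wt 7 rose (8.14%) and in cKO 9 rose (10.5%), while none passed between genotypes in edgeR (2 contralaterally and 6 ipsilaterally had an unadjusted p under 0.05). Without both cKO libraries numbered 2 the counts were 10 higher and 0 lower in the mean, 5 in wt and 4 in cKO; Zcchc3 and Usp20 were the genes lost from the mean. Of 15 genes that feed TBK1 from other sensors or form the NF-kB arm, 4 rose in the mean of genotypes. Nfkb1 and Rela, which encode NF-kB subunits, rose by 0.84 ± 0.09 and 0.54 ± 0.09 (log2, SE; edgeR adjusted p = 1.9e-05 and 0.00106). Irf5, a transcription factor activated through toll-like receptors, rose by 1.05 ± 0.15 (edgeR adjusted p = 2.6e-04), from 2.80 to 6.26 CPM in wt and from 3.50 to 6.50 CPM in cKO. These 3 passed in each genotype alone as well. Without both cKO libraries numbered 2 only Nfkb1 of them passed in cKO, and Rela no longer passed in wt. The other gene that rose was Ticam1, which encodes TRIF, an adaptor of toll-like receptors, at 0.39 ± 0.09 in the mean (edgeR adjusted p = 0.0109).

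Among 22 regulators and trafficking factors of STING and TBK1, 2 rose and 1 fell. Rhbdf2, which encodes iRhom2, a protein reported to help STING leave the endoplasmic reticulum, rose by 1.42 ± 0.18 (log2, SE; edgeR adjusted p = 1.0e-04), from 1.41 to 3.75 CPM in wt and from 1.66 to 4.32 CPM in cKO. Insig1, known as a brake on sterol synthesis and reported to promote STING ubiquitination, rose by 0.54 ± 0.06 (edgeR adjusted p = 1.3e-05). Usp20, a deubiquitinase reported to stabilise STING, fell by 0.17 on the log2 scale (edgeR adjusted p = 0.0487). Both genes that rose have other known roles, iRhom2 in the shedding of TNF and INSIG1 in cholesterol balance.

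Of 19 other DNA-binding sensors tested, 3 rose in the mean of genotypes and in cKO, and 0 in wt (3 with an unadjusted p under 0.05 in edgeR). Ifi207, a member of the interferon-inducible p200 family, stood at 0.431 ± 0.236 and 1.14 ± 0.13 CPM in wt contralateral and ipsilateral cortex, and at 0.128 ± 0.039 and 1.23 ± 0.10 CPM in cKO (SD, n = 3). Its log2 difference was 2.31 ± 0.30 in the mean (SE; edgeR adjusted p = 1.1e-04). Contralaterally Ifi207 had 36 counts in total over the wt libraries and 10 over the cKO ones. It met the low-count filter through the ipsilateral side, so its place among the genes that rose was partly set by that filter. Hmgb2, a chromatin protein that also binds free DNA, rose by 0.73 ± 0.13 (edgeR adjusted p = 0.00217). Zcchc3, a reported cGAS cofactor, rose by 0.44 ± 0.09 (edgeR adjusted p = 0.0085). Without both cKO libraries numbered 2, Ifi207 alone of these 3 passed in cKO, and Ifi207 and Hmgb2 passed in the mean. No difference in response between genotypes passed for any of these genes. None of 11 nucleases and other factors of DNA clearance and none of 7 cGAMP carriers and hydrolases passed in the mean of genotypes in edgeR (1 and 2 with an unadjusted p under 0.05).

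Of 12 interferon-related genes tested, 2 rose. Cxcl10, a chemokine induced by interferon and by NF-kB, rose by 3.66 ± 0.47 (log2, SE; edgeR adjusted p = 1.1e-04), from 0.327 to 3.13 CPM in wt and from 0.175 to 3.49 CPM in cKO. Contralaterally it had 27 counts in total over the wt libraries and 17 over the cKO ones, with values down to 0 CPM in cKO. Cxcl10 met the low-count filter through the ipsilateral side, so its place among the genes that rose was partly set by that filter. Irf9, a subunit of the interferon-activated transcription factor ISGF3, rose by 0.38 ± 0.09 (edgeR adjusted p = 0.0194). The median log2 difference of the 12 was 0.13, beside -0.01 over all genes. Ifnb1, the interferon gene classically switched on by IRF3, and Ifna4 had 0 counts in all 12 libraries, which lies under a floor of 0.0881 to 0.373 CPM per library.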

How the data were processed

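Bulk RNA-seq of cortex was deposited as 2 tables covering 12 libraries. Estimated (expected) counts per gene and TPM were made by the authors; per the submitters' processing notes the tools were Trim Galore 0.6.4, STAR 2.7.1a, RSEM 1.2.28 and DESeq2 1.36.0 on mm10, with no roles stated. Libraries came from a stranded poly(A) kit, per the labels' protocols; the strand setting used in counting is not given in the sources used here. Symbols came from GENCODE M21 (55141 of 55487 identifiers matched, 99.4%) and promoters from RefSeq GRCm38.p6. Groups were taken from the sample labels.

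The expected counts as deposited were rounded to whole numbers, filtered (edgeR filterByExpr, minimum count 10; 16836 genes kept, 38651 removed), TMM scaled and tested with edgeR 4.0.16 (quasi-likelihood, R 4.3.3) over all 12 libraries, with Benjamini-Hochberg adjustment over all genes tested and a threshold of 0.05. For the overall genotype difference the same-numbered sides, which may be one animal, were summed to 3 units a genotype (17785 genes). Intervals are 95%. Log2 CPM used a prior count of 2. The deposited TPM values served for levels between genes and for alternatives with limma 3.58.1. DESeq2 1.42.0 was another alternative. The script was tested on simulated counts. The floor of 3 counts covers counting error only.

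All members are named; other pathway genes are up to 3 that passed per list and comparison, smallest adjusted p first; and the 5 genes nearest to Tmem173 come from those with at least 1 CPM on average. Members and lists were chosen with earlier results of these data known. Alternatives that leave out the cKO libraries numbered 2 or 3 were chosen after seeing the data. The labels do not state a pairing, so the tests over 12 libraries use none. Same-numbered sides deviated together only weakly. The summed genotype difference and the permutation test over the mean of the sides do join same-numbered sides. No value was excluded otherwise.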

Additional observations from a re-analysis of the deposited data

How the results depend on the processing

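Over 70 differences (10 members in 7 comparisons) and 1614 alternative values, 1518 kept their sign. Of the alternatives, 8 lost a call and 4 gained one, and no called value changed sign. The number of members called fell from 1 to 0 for the mean injury difference with limma on log2(TPM + 1), on log2(TPM + 0.1) and on log2(TPM + 1) with no filter, and without both cKO libraries numbered 2. The TPM filters left Ikbke (0.508 TPM on average) untested in the first pair, and unfiltered it gave 0.13 (adjusted p = 0.532). Leaving out each library gave 0 to 2 members for the mean injury difference, and leaving out each unit gave 0 to 1 for the summed genotype difference. With no low-count filter 1 member (Tmem173) was called in the contralateral and 1 in the summed genotype comparison; the cause was not tested.

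Genes called over the whole table moved more. The wt injury count (491) was 991 unfiltered, 755 by DESeq2, 98 to 139 on TPM and 250 (without wt contralateral 2) to 861 (without wt contralateral 3) on leaving out libraries. The cKO injury count (461) was 968 unfiltered, 170 to 174 on TPM and 213 without both cKO libraries numbered 2. The mean injury count (1350) was 319 to 404 on TPM, 876 to 2075 on leaving out libraries and 705 without both numbered 2. Genotype counts of 0 became 96 contralaterally, 223 ipsilaterally and 161 with sides summed when unfiltered, and 1, 12 and 5 by DESeq2; the count for the difference in response became 72 unfiltered and stayed 0 by DESeq2.

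With a replicate block, Ikbke in the mean injury difference was 0.95 (adjusted p = 0.0467) and Tmem173 in the summed genotype difference was -1.08 (adjusted p = 0.648); the block gave 567, 533 and 1484 genes for wt, cKO and mean injury and changed no member's call. Correlations of same-numbered sides were -0.00 to 0.09, and 5 of 6 libraries matched best with their own number, a hint from the data and not from the design. Depth limits Ikbke, Cgas and Tmem173 most, at 4 to 86 counts per library.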
